A study of Bos taurus with 16 samples.

Results

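The genes described here are 9 members of arginine and creatine metabolism around GATM, namely GATM, GAMT, SLC6A8, CKB, ARG1, ARG2, ASS1, NOS2 and ODC1. A probe was taken as a member where its gene name, or the symbol in brackets in its description, was 1 of these symbols. That rule found 6 of the 9 genes. CKB, ASS1 and NOS2 stood on the array under an identifier or an older symbol (LOC516210, ASS and NOS2A) and were found through a reference gene table, with which all 9 genes had 1 probe each, out of 21475 probes under 20602 gene names on the array. The members were chosen with their difference between endometrium and blood already known, so that difference is described for them and not tested.

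CD14+ cells were sorted from the endometrium and from the blood of 4 pregnant cows collected at an abattoir. Animal 1 was at day 164 of pregnancy, animal 2 at day 239, animal 3 at day 242 and animal 4 at day 248. All cows were pregnant and received no treatment that the labels name, and the RNA of every preparation was amplified before labeling. Mononuclear cells of both tissues were taken from a density gradient before the sort. Only endometrial cells were first released with collagenase, and this step and the tissue cannot be told apart. The 2 preparations of a cow were hybridized together on 2 Agilent arrays with 2 colours, which makes 8 arrays and 16 channels.

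Arginine feeds several pathways that compete for it. GATM (L-arginine:glycine amidinotransferase) joins arginine and glycine to guanidinoacetate, which GAMT methylates to creatine. SLC6A8 imports creatine and the creatine kinases, CKB among them, charge it with phosphate. Arginases (ARG1, ARG2) split arginine to urea and ornithine, the inducible nitric oxide synthase (NOS2) turns it to nitric oxide and citrulline, ASS1 starts the return of citrulline to arginine, and ODC1 makes the first polyamine from ornithine. In macrophages the choice between NOS2 and arginase is widely used to describe activation states.

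Each gene was read by a single oligonucleotide, so its 3′ end is shown for the members on which the results turn. The 30 bases at the 3′ end of 5 of the probes are given, with the hexamer aataaa, the usual polyadenylation signal, in capitals where it occurs.
GATM: tttttattctAATAAActtttgtgttacag
GAMT: tgaAATAAAcgctaatgctggtctggccca
CKB: atgctgaAATAAActagggttttggcctgc
ARG2: ctcacagggtattaatatgttggagcgcta
NOS2: ggccttccttgtatgattctatgatggaga
The probes of GATM, GAMT and CKB held the hexamer on the strand given in the files, and the other 6 member probes did not. Of all 21475 probes, 11.8% held it on that strand. The longest run that a member probe shared with any other probe of the array, on either strand, was 13 to 15 of its 60 bases.

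A channel is 1 dye of 1 array, and a probe counted as well above background in a channel where the scanner software marked most of its spots so. That mark was carried by 65.2% to 82.9% of the spots, depending on the channel, and no spot was saturated. Levels below are log2 normalized intensities per animal and tissue, each the mean of 2 arrays, and they do not compare 1 gene with another. The ratio is the log2 level in endometrium minus that in blood of the same animal. The direction of the ratios in animals 1, 2 and 4 rests on matching the scanner files to the authors' value table, whose columns are named by sample. In animal 3 the endometrium was in Cy5 on both arrays, so its direction does not depend on that match. A probe was called where limma, fitted over 16654 probes, gave it a Benjamini-Hochberg adjusted p no higher than 0.05 and a ratio beyond 2-fold. The 11 probes called were all higher in endometrium and made up 0.0661% of those tested, with 0 called higher in blood. Among the 9 member probes 1 was called, GATM, and since the members were chosen on this contrast nothing is read from that count.

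GATM had the widest separation of the members. Its level was 11.41, 10.83, 12.60 and 9.58 in the endometrium of animals 1 to 4, and 7.68, 7.06, 8.16 and 6.19 in their blood. All 4 endometrial preparations were above all 4 blood preparations, with a gap of 1.42 between the lowest endometrial and the highest blood level. The ratio was 3.72, 3.77, 4.44 and 3.39 in animals 1 to 4, with a mean of 3.83 ± 0.44 (SD, n = 4 animals), or 14.2-fold. Both tissues ranked the animals in the same order, animal 3 first, then 1, 2 and 4. The levels thus spanned 3.02 over the endometrial and 1.96 over the blood preparations while the ratio stayed between 3.39 and 4.44. The blood level of animal 4, 6.19, was close to the floor near 6 that the offset described below sets. Its ratio and the blood span are therefore compressed. The 2 arrays of an animal differed by up to 0.59 for GATM, and neighbours in the order that lay closer than that were endometrium of animals 1 and 2, 0.58 apart, and blood of animals 3 and 1, 0.47 apart. In the authors' own log2 values, which carry none of the offset of 50 added to the intensities here, the mean ratio of GATM was 4.95 ± 0.57 (SD, n = 4 animals) and again no endometrial level fell among the blood levels. There the ratio was 4.30, 4.84, 4.97 and 5.67 in animals 1 to 4, so that animal 4 had the highest ratio instead of the lowest. The levels there spanned 3.08 in endometrium and 3.79 in blood.

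The methylating step was less separated. GAMT had levels of 9.68, 9.41, 9.54 and 8.64 in the endometrium of animals 1 to 4 and of 8.78, 8.04, 8.72 and 8.26 in their blood. It was higher in endometrium within each of the 4 animals, but the lowest endometrial level, in animal 4, lay below the blood levels of animals 1 and 3. The mean ratio was 0.87 ± 0.41 (SD, n = 4 animals), or 1.82-fold.

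The importer of creatine could not be compared in the values with the offset. SLC6A8 lay between 6.20 and 6.57 in all 8 preparations, was well above background in 6 of the 8 channels of each tissue, and had a mean ratio of -0.04 ± 0.08 (SD, n = 4 animals). Levels near 6 are the floor that the offset of 50 sets in these values, and a difference at this signal was not detectable in them. In the authors' log2 values, without that offset, SLC6A8 lay between 4.50 and 6.73. Its ratios there were -0.14, 0.51, -1.47 and -0.12 in animals 1 to 4, with no common direction.

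CKB, the brain type cytosolic creatine kinase, was the other member with a large and even ratio. Its endometrial levels were 13.12, 9.70, 12.78 and 10.41 in animals 1 to 4 and its blood levels 10.66, 8.02, 9.90 and 8.34. Animals 1 and 3 were high in both tissues, so that the groups overlapped although CKB was higher in endometrium in 4 of 4 animals. The mean ratio was 2.27 ± 0.52 (SD, n = 4 animals), or 4.83-fold. As with GATM, both tissues gave the same order of the animals, here animal 1 first, then 3, 4 and 2.

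**Figure D1:**
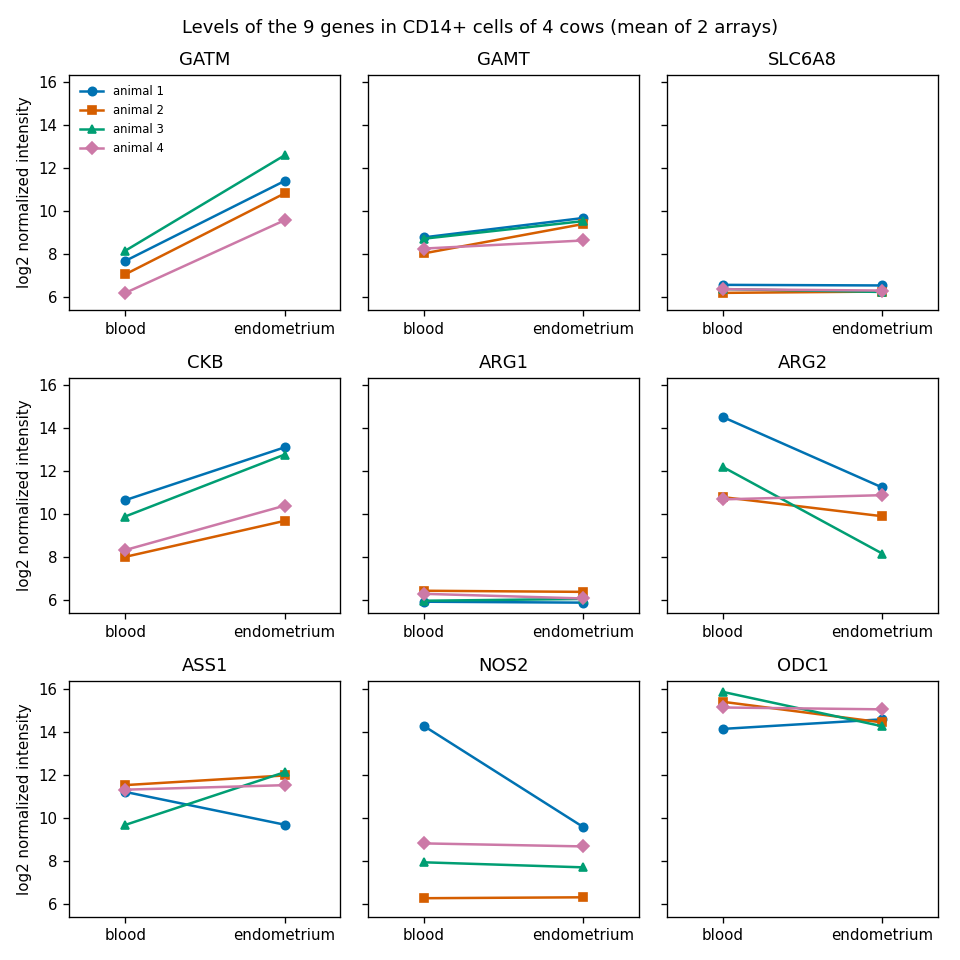
Log2 normalized intensity (vertical axis) of the 9 genes in blood and endometrial CD14+ cells (horizontal axis), 1 point per animal and tissue as the mean of 2 arrays, with a line joining the tissues of an animal. For GATM all endometrial points, from 9.58, lie above all blood points, up to 8.16, and for NOS2 the blood of animal 1, at 14.26, stands apart.

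Of the arginases, only ARG2 was bright enough to compare. ARG1, the arginase of the urea cycle, was well above background in 2 of 8 endometrial and 4 of 8 blood channels. Its levels, between 5.89 and 6.45, were near the floor that the offset sets. ARG2, the mitochondrial arginase, was well above background in every channel. Its levels were 11.25, 9.91, 8.18 and 10.89 in the endometrium of animals 1 to 4 and 14.53, 10.80, 12.21 and 10.70 in their blood. Blood was higher in animals 1, 2 and 3, while animal 4 had nearly equal levels. The ratios of ARG2 were -3.28, -0.89, -4.03 and 0.20, with a mean of -2.00 ± 1.98 (SD, n = 4 animals), so that the mean was about as large as the spread between animals. Without animal 3 the mean ratio was -1.32, without animal 1 it was -1.58 and without animal 4 it was -2.73.

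NOS2 showed a large difference between tissues in a single animal. Its levels were 9.55, 6.29, 7.68 and 8.66 in the endometrium of animals 1 to 4 and 14.26, 6.25, 7.92 and 8.80 in their blood. In animals 2, 3 and 4 the tissues differed by 0.04, -0.23 and -0.14, and in animal 1 by -4.71. Both levels of animal 2, 6.29 and 6.25, were near the floor, where a difference could not have been seen. The mean ratio of -1.26 ± 2.30 (SD, n = 4 animals) therefore rested on the blood of animal 1, and without that animal it was -0.11. Animal 1 was also the animal earliest in pregnancy, and day of pregnancy and animal cannot be told apart.

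ASS1, argininosuccinate synthase, had endometrial levels of 9.67, 11.96, 12.11 and 11.51 in animals 1 to 4 and blood levels of 11.20, 11.51, 9.66 and 11.30. Animal 1 was lower in endometrium by 1.53 on the log2 scale and animal 3 was higher by 2.45, so the 4 animals gave no common direction. The mean ratio was 0.40 ± 1.63 (SD, n = 4 animals), and it was -0.29 without animal 3 and 1.04 without animal 1.

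ODC1, ornithine decarboxylase, was bright in every preparation. Its levels were 14.57, 14.43, 14.25 and 15.04 in endometrium and 14.13, 15.39, 15.85 and 15.12 in blood. Blood was higher in animals 2, 3 and 4 and endometrium in animal 1, and the mean ratio was -0.55 ± 0.91 (SD, n = 4 animals). It was -0.20 without animal 3 and -0.88 without animal 1.

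**Figure D2:**
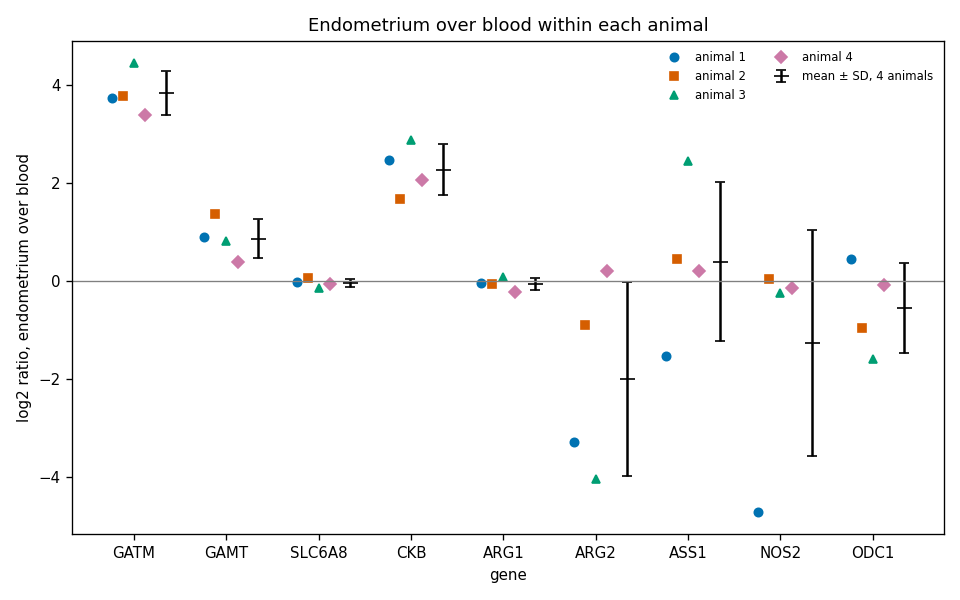
Log2 ratio of endometrium over blood within each animal (vertical axis) for the 9 genes (horizontal axis), with the mean ± SD over 4 animals in black. GATM and CKB lie above 0 in 4 of 4 animals with SDs of 0.44 and 0.52, while ARG2, ASS1 and NOS2 have SDs of 1.98, 1.63 and 2.30.

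Across the members, 3 of 9 (GATM, GAMT and CKB) were higher in endometrium in 4 of 4 animals, beside 10.2% of all tested probes, and 0 were higher in blood in 4 of 4 animals, beside 14.7%. The groups did not overlap for 1 of 9, GATM, beside 2.41% of tested probes that did not overlap with endometrium higher. In 5 of the 9 members the SD over animals exceeded the size of the mean ratio. The median ratio of the 9 was -0.04, beside -0.02 over all tested probes. The sign of the mean ratio was the same on both slides for all 9 members. On slide 1 the endometrium was in Cy5 for all 4 animals, and on slide 2 it was in Cy3 for animals 1, 2 and 4.

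The order of the animals was not used in choosing the members. It was the same in both tissues for 4 of 9 members, GATM, CKB, ARG1 and NOS2, beside 9.07% of the tested probes, with ARG1 near background. For 4 of 9 members, GATM and CKB and the dim SLC6A8 and ARG1, the SD of the ratio was below the SD of the levels in either tissue, beside 17.4% of the tested probes. In the authors' log2 values GATM, CKB and ARG1 were again among these, SLC6A8 was not, with an SD of 0.83 for the ratio against 0.81 for blood, and NOS2 was. For GATM the SD over animals was 1.26 in endometrium and 0.85 in blood against 0.44 for the ratio, and for CKB it was 1.70 and 1.26 against 0.52. For GATM and CKB, a cow with a higher level in endometrium thus also had a higher level in blood. Both preparations of a cow shared the array, and the part of the array in this was not tested.

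The other genes of arginine and creatine metabolism were 50 genes in 8 roles, of which 46 were on the array and 41 were tested. None was called by limma. With the p left unadjusted and the same fold, limma gave 4 higher in endometrium and 2 higher in blood, beside 5.27% and 5.11% of the tested probes, and the methods' analysis of variance gave 2 and 1, beside 2.32% and 1.8%. In 4 of 4 animals, 6 of the 41 were higher in endometrium and 5 higher in blood, beside 10.2% and 14.7% of tested probes. The median ratio of the 41 was -0.01.

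The mitochondrial creatine kinase CKMT1 had the largest ratio of the list. Its levels were 9.37, 8.59, 13.55 and 8.65 in the endometrium of animals 1 to 4 and 6.74, 6.56, 8.35 and 6.44 in blood. The endometrium of animal 3 was far above the rest, and all endometrial levels were above all blood levels. The ratio was 3.02 with an SE of 0.58, and the adjusted p by limma was 0.254. The sarcomeric CKMT2 was near background, with a ratio of 0.36 from its brighter probe that came from the endometrium of animal 4, and of -0.49 from its other probe. CKM, the muscle creatine kinase, was well above background in 0 of 16 channels.

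DDAH2, named as a dimethylarginine dimethylaminohydrolase and listed here under methylarginines, was next. Its levels were 15.14, 13.34, 14.42 and 12.94 in the endometrium of animals 1 to 4 and 9.81, 11.59, 10.58 and 11.85 in their blood, so that the tissues did not overlap. The ratio was 3.00 with an SE of 0.75 and an adjusted p by limma of 0.262. PRMT1, a main enzyme of arginine methylation in proteins, had the lowest ratio of that role at -0.47 with an adjusted p by limma of 0.547, and without animal 3 it was at -0.11.

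In the polyamine role the ends were SAT2 and SMS. SAT2, named after spermidine and spermine acetyltransferase, had levels of 11.33, 7.91, 10.39 and 8.21 in endometrium and 8.45, 7.38, 7.31 and 6.30 in blood of animals 1 to 4, a ratio of 2.10 with an SE of 0.48. SMS, spermine synthase, had 7.09, 6.73, 6.82 and 9.52 in endometrium and 8.42, 10.13, 9.02 and 10.18 in blood, a ratio of -1.90 with an SE of 0.48. Each kept its direction in 4 of 4 animals and had an adjusted p by limma of 0.262. The other probe for SMS, under LOC534520, gave -0.23. It lay near the floor, at 5.91 to 6.86 in endometrium and 6.49 to 6.81 in blood, where a difference is compressed. AMD1, which provides the aminopropyl donor for spermidine and spermine, is named after its values were seen as the other gene past an unadjusted p with blood higher, at a ratio of -1.38. Of the 13 polyamine genes tested, 3 were higher in endometrium and 2 higher in blood in 4 of 4 animals. The shares of all tested probes were 10.2% and 14.7%.

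Ornithine also leads to proline. ALDH18A1, which makes the common precursor of proline and ornithine from glutamate, had levels of 10.96, 12.36, 12.11 and 10.43 in endometrium and 10.11, 9.39, 10.04 and 9.93 in blood of animals 1 to 4. These did not overlap, and the ratio was 1.60 with an SE of 0.46 and an adjusted p by limma of 0.266.

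The remaining roles had smaller ratios, with 0.287 as the lowest adjusted p by limma. Among transporters, SLC7A7 was highest at 0.68 and SLC7A1, the main cationic amino acid importer of many cells, lowest at -0.96. ASL, which completes the return of citrulline to arginine, was at 0.83, which came from an endometrial level of 11.85 in animal 3. NAGS, which makes the activator of CPS1, was at 0.50. NOS3, the endothelial nitric oxide synthase, was at 0.56 and PTS, of the synthesis of its cofactor, at -0.14. AGMAT and AZIN2 were at -0.39 and -0.41. Most of these ratios moved by over 1.5 times when 1 animal was left out, NAGS to 0.04 and AZIN2 to -0.12 without animal 2, SLC7A7 to 0.37 without animal 2 and to 1.18 without animal 3, and ASL to -0.19, PTS to 0.41 and NOS3 to 0.35 without animal 3. In the authors' log2 values AGMAT was at -1.27, AZIN2 at -0.85 and NOS3 at 1.30. OTC and CPS1 of the urea cycle, NOS1 and AGXT2 were on the array but too dim to be tested.

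**Figure D3:**
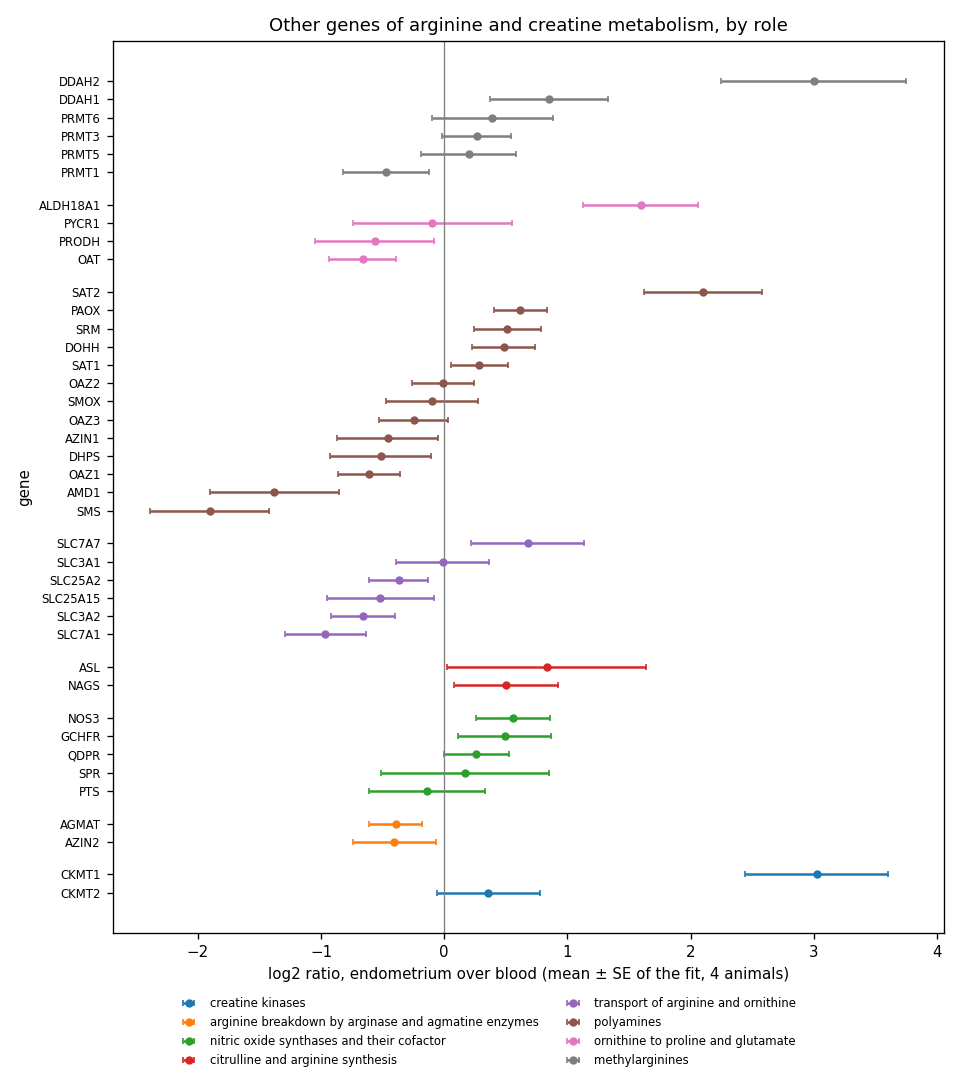
Log2 ratio of endometrium over blood (horizontal axis, mean ± SE of the limma fit over 4 animals) for 40 of the 41 tested genes of the list that are not members (vertical axis), coloured by role. CKMT1, DDAH2, SAT2 and ALDH18A1 lie farthest to the right, at 3.02, 3.00, 2.10 and 1.60, and SMS farthest to the left at -1.90.

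The probes most like GATM were found by the root mean square difference over the 8 preparations, after each probe was centred on its own mean. Over 16653 tested probes of other genes, the 5 closest were CSH2 (placental lactogen, CSH1 in the array's design) at 0.30, PRP6 (a prolactin-related protein of the placenta) at 0.37, the unidentified transcript CB224956 at 0.42, CDH1 (the epithelial cadherin) at 0.45 and LOC512847 at 0.48. The median over all probes was 2.21. The authors' value table gave the same 5 probes. CKB was the closest member, at 1.19 and place 117, followed by GAMT at place 887, while ARG2 and NOS2 were among the farthest, at places 16500 and 16572. These differences contain the contrast between tissues on which GATM was chosen and carry no test.

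PRP6 had levels of 11.59, 10.96, 12.36 and 10.12 in the endometrium of animals 1 to 4 and of 7.02, 6.73, 7.63 and 6.20 in their blood. It ranked the animals as GATM did, with animal 3 highest and animal 4 lowest in both tissues. CDH1 had 10.29, 9.15, 11.34 and 8.79 in endometrium and 6.88, 6.36, 7.45 and 6.14 in blood, again in that order. CSH2, the closest probe, had 10.77, 10.99, 12.02 and 9.57 in endometrium, where animal 2 lay above animal 1. In blood it had 6.95, 6.81, 7.74 and 6.11, in the order of GATM. The 5 probes were picked for closeness to GATM over these same preparations, so a shared order is partly given by that choice.

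**Figure D4:**
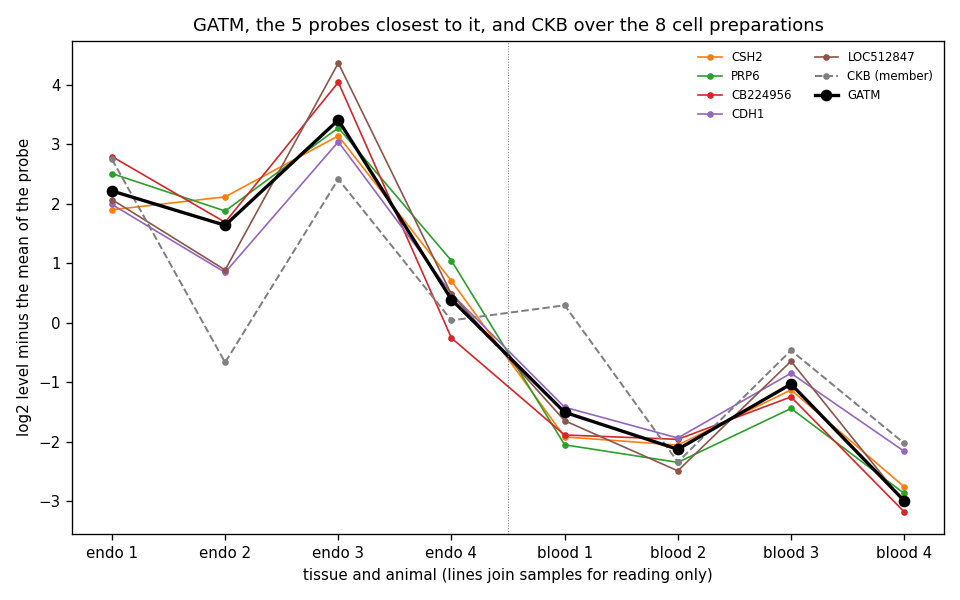
Log2 level minus the mean of the probe (vertical axis) in the endometrial (endo) and blood preparations of animals 1 to 4 (horizontal axis) for GATM, the 5 probes closest to it and CKB. The 5 probes follow GATM within a root mean square difference of 0.30 to 0.48, and all are highest in the endometrium of animal 3 and lowest in the blood of animal 4.

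Markers of some cell types also differed between the tissues. Each list was summed over its genes on the linear scale and is given as the log2 of that sum. The sum of the trophoblast list was 13.90 to 15.62 in endometrium and 10.55 to 11.69 in blood, and 9 of its 10 genes on the array had the higher level in endometrium in each of the 4 animals, with PAG17 well above background in 0 of 8 blood channels. The sum of the epithelium list was 13.56 to 16.77 in endometrium and 10.30 to 11.65 in blood, where 9 of 10 genes had that direction in all 4 animals. Both sums were highest in the endometrium of animal 3, as GATM was, but neither ranked the animals as GATM did in either tissue. A linear sum follows its brightest genes, such as SERPINA14 in endometrium and PAG1 in blood. PAG1, at 10.97 in the blood of animal 2, was higher in blood in 3 of 4 animals. Taken singly, KRT8, KRT18, CDH1 and PRP6 ranked the animals as GATM did in both tissues, and the other genes of these lists did not. CDH1 and PRP6 had been picked above for their likeness to GATM. The stroma list reached 16.08 in the endometrium of animal 1 and was 9.04 to 11.37 in that of the others and 8.88 to 10.50 in blood, with 4 of 7 genes higher in endometrium in 4 of 4 animals. Among all tested probes, 10.2% were higher in endometrium in 4 of 4 animals. The part of these cells in the ratios of GATM, CKB and CKMT1 was not tested. In such mixed RNA, fewer cells of a type and less RNA per cell cannot be told apart.

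The monocyte and macrophage list, which bears on the labels of the cells, summed to 13.05 to 16.54 in endometrium. In blood it summed to 15.92, 10.98, 11.10 and 10.87 in animals 1 to 4, so that only animal 1 was high. Of its genes, 4 of 8 were higher in endometrium and 1 higher in blood in 4 of 4 animals. CD14, the antigen of the sort, was at 12.17, 6.41, 8.14 and 6.82 in the endometrium of animals 1 to 4 and at 14.24, 6.30, 7.63 and 6.69 in their blood. It was thus high in both tissues of animal 1 and close to the floor in animals 2 and 4, although well above background in 8 of 8 channels of either tissue. The list of natural killer and T cells summed to 15.14 to 17.08 in endometrium, and 5 of 10 genes were higher in endometrium and 1 higher in blood in 4 of 4 animals. In blood it summed to 11.59, 14.97, 14.20 and 15.41 in animals 1 to 4, lowest where the monocyte and macrophage sum was highest. The part of the cell makeup of the blood preparations in the ratios was not tested. The B cell list summed to 11.61 to 13.98 in endometrium and 12.65 to 15.20 in blood, with 2 of 5 genes higher in blood in 4 of 4 animals. Over all tested probes, 10.2% were higher in endometrium and 14.7% higher in blood in 4 of 4 animals.

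NOS2 and ARG2 were highest in the preparation in which CD14 was highest, the blood of animal 1. There CSF3R, the receptor of granulocyte colony-stimulating factor, was at 12.79 against 6.29 to 7.98 in the other 7 preparations. CSF3R also made up nearly all of the sum of the granulocyte list there, which was 12.87 against 8.55 to 10.37 elsewhere. The other 4 genes of that list on the array did not peak in the blood of animal 1, where CCR3 was at 6.45, the lowest of the 4 blood levels, MPO was at 6.56 and LTF at 7.24, against 7.39 and 9.87 in the endometrium of animal 3, and CAMP was well above background in 0 of 16 channels. Of the 5 genes, 1 was higher in endometrium and 2 higher in blood in 4 of 4 animals. Those shares over all tested probes were 10.2% and 14.7%. The methods describe a density gradient and a scatter gate on monocytes, and report no count of granulocytes among the sorted cells. The part of the cell makeup of this preparation in the levels of NOS2 and ARG2 was not tested. Without animal 1, GATM kept a ratio of 3.87 and CKB one of 2.21.

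**Figure D5:**
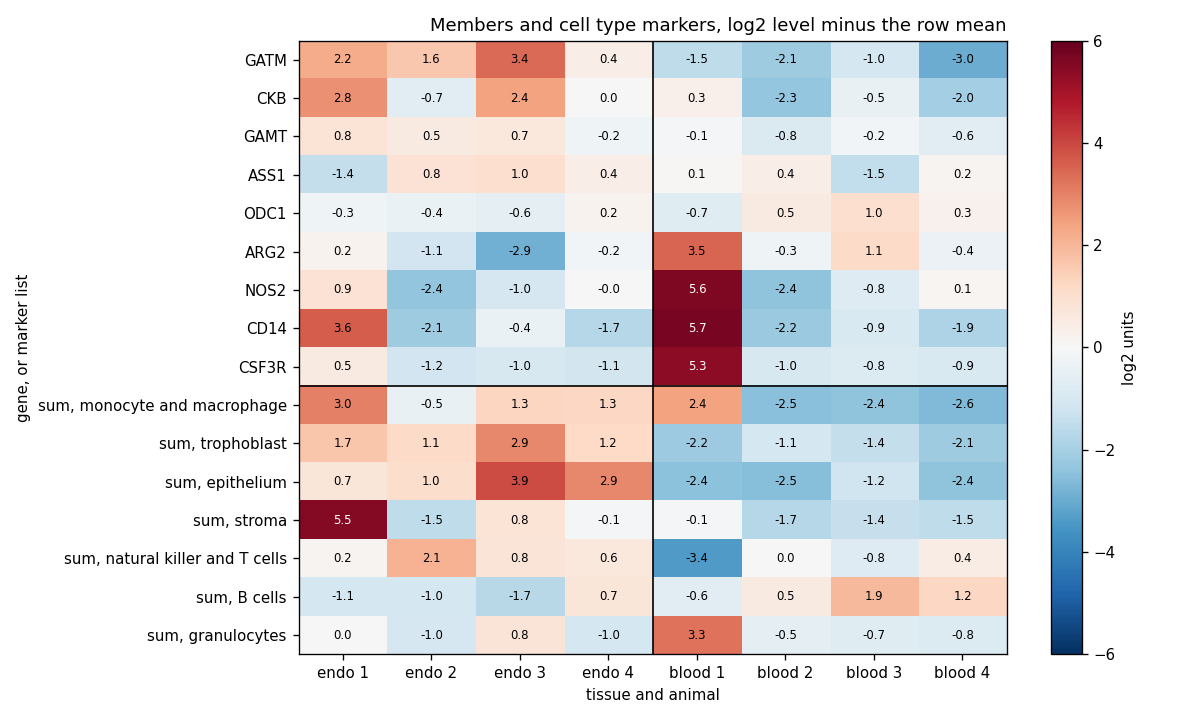
Log2 level minus the row mean (colour and number) in the endometrial (endo) and blood preparations of animals 1 to 4 (columns) for 7 members, CD14 and CSF3R (upper rows) and for the log2 sums of 7 marker lists (lower rows). NOS2, CD14, CSF3R and the granulocyte sum, which is nearly all CSF3R there, peak in the blood of animal 1, and GATM and the trophoblast and epithelium sums peak in the endometrium of animal 3.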

How the data were processed

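RNA of endometrial and blood CD14+ cells of 4 cows was measured on 8 Agilent arrays with 2 colours, with 2 arrays for each animal as technical replicates. The authors deposited scanner files that hold, for either dye, the median intensity of each spot and of the background around it, without normalization. A processed intensity in these deposited files had already been corrected for background and dye by Feature Extraction (version 9.5 per the labels, while the file headers give another). The authors also deposited log2 values for each sample, made by a lowess fit in each array followed by quantile normalization of all 16 channels.

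To match columns to scanner files, the log2 values of a column were laid on the ranks of the processed signals of a file. The spots of a probe were compared as a set. All 16 columns were then equal, at 100% of probes and within 0.001, to files that GEO attaches to the other array of the same cow and tissue. In their own files no more than 0.0186% of probes were equal. Compared spot by spot, at most 41.0% were equal in any file. The scanner files were therefore read by that match, a choice made once the values had been seen. Intensities were treated in limma 3.58.1 under R 4.3.3 (statmod 1.5.0) with normexp at an offset of 50, then loess in each array, then quantiles. Controls and spots marked as outliers, which numbered 3 to 20 per array, were dropped before spots of 1 probe were averaged. Tested probes had 4 or more of 8 channels of 1 tissue well above background. The log2 ratio per animal was set against 0 with lmFit and eBayes over 4 animals, with Benjamini-Hochberg adjustment over all 16654 probes. The number of arrays limits precision.

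The test is paired because the tissues carry the number of their cow in the labels. Deviations from the tissue mean were correlated between the tissues of each cow across probes. This gave r of 0.618, 0.364, 0.209 and 0.465 for animals 1 to 4. Both tissues of a cow shared its arrays, so r cannot tell the cow from the array and does not check the pairing. The fit was tested on simulated data. The members, gene lists and tests were chosen with earlier results of these data known. Named are all member probes, the called genes of the pathway list and the highest and lowest tested gene of each role (brightest probe), and the 5 probes closest to GATM. The result of 1 gene of the list is not reported here. Alternatives changed the background correction, normalization, values, filter, pairing, slides, animals, test and threshold. Gene names came from RefSeq genes of assembly ARS-UCD2.0, by accession for 3519 probes, identifier for 9987, symbol for 297 and synonym for 86, and 7586 kept the name of the array's design. No genome positions are given, since the array's design used another assembly.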

Additional observations from a re-analysis of the deposited data

Results flagged for a closer look

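In groups of 4 animals, a single value that stood apart from the other 3 by more than Dixon's critical value was looked for in 87 groups of values, and 9 stood apart, where chance gives about 1 in 20. Among the members, ASS1 in blood was 9.66 in animal 3, with the next at 11.20, and the log2 ratio of NOS2 in animal 1 was -4.71, with the next at -0.23. CKMT1 in animal 3 was 13.55 in endometrium, with the next at 9.37, and 8.35 in blood, with the next at 6.74. CKMT2 in animal 4 was 8.15 in endometrium, with the next at 6.09, and its log2 ratio there was 1.83, with the next at -0.03. SLC7A1 in blood was 10.36 in animal 3 and SLC7A7 in blood was 12.31 in animal 1. SMS in endometrium was 9.52 in animal 4.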

How the results depend on the processing

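The ratio of GATM was 3.56 to 4.25 on the log2 scale under 11 alternatives. It was 4.95 with the scanner's processed signals and with the authors' log2 values, which also moved the median ratio of all tested probes from -0.02 to -0.14, so that GATM stood 5.08 above that median instead of 3.85. With the scanner files as attached it was -1.61, since the sign then turned in animals 1, 2 and 4 and not in animal 3, and 0 probes were called. Probes called were 11 in the main setting and 50 without background correction, 224 with the processed signals and with the authors' values, 5 with loess only, 5 without a filter on dim probes, 55 among probes well above background in all 16 channels, 792 with 8 arrays, a dye term and animal as random block, 5 on slide 1, 20 on slide 2, 0 with each animal left out in turn, 1729 with limma at an unadjusted p, and 687 and 0 with the methods' analysis of variance before and after adjustment. Without the block for the pair of tissues of an animal, 4 probes were called, none of a member, and the ratio of GATM was 3.83. Of the members, 1 was called in the main setting, 2 (GATM and CKB) with all 16 channels, with the dye term and with the unadjusted analysis of variance, 3 with limma unadjusted, and 0 with loess only, without a filter, on slide 1, after adjustment of the analysis of variance and with each animal left out in turn. Of the other pathway genes, 1 (CKMT1) was called with the processed signals and with the authors' values, 4 with the dye term, 6 with limma unadjusted and 3 with the unadjusted analysis of variance. With each animal left out in turn, the ratio of CKMT2 ran from -0.14 (without animal 4) to 0.56, that of PTS from -0.46 to 0.41 (without animal 3) and that of ASL from -0.19 (without animal 3) to 1.34. In the authors' values the ratios of SLC6A8, ARG1 and CKMT2 were -0.30, -0.70 and 0.13. The causes were not tested. GATM has 1 probe, so another probe of it could not be tried. The limits are 4 animals, 1 probe for each member, amplified RNA and mixed cells. SLC6A8 and ARG1 lay near the floor, where a lower level could not have been seen.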

Other observations

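Another 2 probes are described on the array as similar to ornithine decarboxylase, under LOC508426 and LOC529108, and were kept apart from ODC1. LOC508426 had levels of 7.95, 9.38, 8.54 and 10.05 in the endometrium of animals 1 to 4 and of 8.26, 10.43, 10.83 and 10.14 in their blood, a ratio of -0.94 ± 0.99 (SD, n = 4 animals) with blood higher in 4 of 4 animals. ODC1 had its lowest ratio in the same animal 3. LOC529108 lay between 6.23 and 6.97, with a ratio of -0.02 ± 0.57 (SD, n = 4 animals). Whether transcripts of these loci share signal with the probe of ODC1 was not tested.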
